A study of Mus musculus with 10 samples.

Results

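Wildtype alveolar type 2 (AT2) cells that carried transcripts of both Lcn2 and Lrg1 were examined in lungs where neighbouring cells were mutant. The cells came from the 4 Red2Kras YFP libraries and were chosen on measured values. A barcode was kept when it had at least 1000 genes, at most 50000 unique molecular identifiers (UMIs), at most 15% mitochondrial UMIs, no Ptprc, fewer than 3 UMIs of Hspa1a and Hspa1b together, no UMI of Cldn4, Dlk1 or Top2a, and at least 1 UMI of each of Lcn2 and Lrg1. This rule took 3795 cells of 14190 YFP barcodes and of 42012 barcodes in all 10 libraries. They comprised 643 and 2309 cells in replicates 1 and 2 at 4 days, and 396 and 447 cells in replicates 1 and 2 at 2 weeks.

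The data were droplet-based single-cell RNA counts of EpCAM+ cells of the distal mouse lung, sorted by RFP or YFP. In Sftpc-CreERT2;R26R-Confetti mice both colours mark wildtype cells, with 1 library per colour and no time point in the labels. In Sftpc-CreERT2;Red2Kras mice the same Cre recombinase, driven from the AT2 gene Sftpc, gives RFP+ cells that are mutant and YFP+ cells that stay wildtype in the same lungs, with 2 libraries per colour at 4 days and at 2 weeks after induction. All mice received tamoxifen in 3 doses of 0.2 mg per g body weight from 8 weeks of age, and both sexes and pooled lungs of at least 2 mice per sample were used. Each library is thus a pool of animals, and the wildtype neighbours were exposed to Cre and tamoxifen like the Confetti cells. Replicate 2 of both Red2Kras time points was male by Xist and Ddx3y, the Confetti libraries were female and the replicate 1 pools were mixed.

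AT2 cells make pulmonary surfactant and serve as stem cells of the alveolus. After injury, and in response to inflammatory cytokines such as IL-1β, a part of them enters a so-called primed state on the way to keratin-rich transitional cells and AT1 cells, and this state is recognised by genes such as Lcn2 and Lrg1. Lcn2 encodes lipocalin 2, an iron-siderophore-binding protein of innate defence, and Lrg1 encodes a secreted leucine-rich glycoprotein. Both are acute-phase genes that cytokine signalling through NF-κB, STAT3 and C/EBP factors can induce. Apoc1 encodes an apolipoprotein, Slpi an inhibitor of neutrophil elastase, and Scd1 the enzyme that makes monounsaturated fatty acids.

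The 4 promoters printed here belong to the 2 genes of the rule and to Slpi and Retnla, which like them were lowest in replicate 1 at 4 days among the YFP libraries. Each runs from 250 bases before to 50 bases after the RefSeq start in GRCm38.p6, on the strand of its gene. They lie at chr2:32387690-32387989 (Lcn2, minus strand), chr17:56121897-56122196 (Lrg1, minus strand), chr2:164356458-164356757 (Slpi, minus strand) and chr16:48842359-48842658 (Retnla, plus strand). Capitals mark the C/EBP-type motif TTGCNNAA on either strand.
Lcn2: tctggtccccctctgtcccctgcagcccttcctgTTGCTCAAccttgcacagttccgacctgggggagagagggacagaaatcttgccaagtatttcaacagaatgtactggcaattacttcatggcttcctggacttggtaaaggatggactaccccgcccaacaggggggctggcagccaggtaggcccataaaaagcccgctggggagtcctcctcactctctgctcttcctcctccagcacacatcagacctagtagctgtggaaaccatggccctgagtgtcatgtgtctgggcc
Lrg1: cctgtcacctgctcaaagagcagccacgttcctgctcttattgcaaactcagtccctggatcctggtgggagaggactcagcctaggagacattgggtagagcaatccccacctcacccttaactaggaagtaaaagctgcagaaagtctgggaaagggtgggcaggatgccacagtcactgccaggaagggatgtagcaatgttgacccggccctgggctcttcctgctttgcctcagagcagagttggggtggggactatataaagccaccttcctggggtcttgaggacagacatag
Slpi: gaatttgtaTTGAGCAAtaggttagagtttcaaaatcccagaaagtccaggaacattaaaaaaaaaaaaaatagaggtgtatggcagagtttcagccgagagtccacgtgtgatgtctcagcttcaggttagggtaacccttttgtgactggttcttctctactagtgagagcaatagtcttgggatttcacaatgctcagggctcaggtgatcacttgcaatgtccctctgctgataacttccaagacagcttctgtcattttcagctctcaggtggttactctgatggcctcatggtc
Retnla: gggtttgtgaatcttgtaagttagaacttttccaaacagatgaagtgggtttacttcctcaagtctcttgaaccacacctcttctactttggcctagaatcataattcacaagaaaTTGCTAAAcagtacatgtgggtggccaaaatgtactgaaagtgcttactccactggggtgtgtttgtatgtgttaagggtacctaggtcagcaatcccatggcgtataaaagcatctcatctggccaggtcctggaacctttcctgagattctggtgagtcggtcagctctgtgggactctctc
The motif began 216 bases before the start in Lcn2, 241 bases before it on the opposite strand in Slpi and 134 bases before it in Retnla, and these letters were not in the Lrg1 window. None of the 4 windows held the κB consensus or the STAT-type motif TTCNNNGAA on either strand. TTGCNNAA occurred in 10.8% of 32851 RefSeq promoters of this length, the κB consensus in 1907 of them and TTCNNNGAA in 8.30%. These are matches of letters and not measured sites.

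Before the results, the libraries and the name of the state need a description. The 4 YFP libraries held 77696222 UMIs, and gated cells had median depths of 4582.5 to 6017.5 UMIs. The limit on Hspa1a and Hspa1b removed 10.0% to 40.0% of the cells that reached it in 3 of these libraries but 85.6% in replicate 1 at 2 weeks, so the cells described for that library are a small remainder. Of the members, 41 (1.08%) had a barcode that also occurred in another library, and Scrublet marked 81 as doublets. A cell with 3 or more UMIs of macrophage, neutrophil, lymphoid, endothelial, mesenchymal or ciliated markers was left out of all summed profiles, which left 3680 members. In these, the 8 macrophage markers summed to 0.486 to 4.83 CPM (counts scaled to the library total) per YFP library, and the 5 endothelial markers to 20.9 to 43.5 CPM, with Cdh5 at 0 in all 4 libraries. Sftpc, the defining surfactant gene of AT2 cells, stood at 156474 and 167601 CPM in replicates 1 and 2 at 4 days and at 140026 and 223917 CPM at 2 weeks. The AT2 name was kept on this gene. Sftpc does not set members apart, since YFP cells with neither Lcn2 nor Lrg1 also held a mean of 112080 CPM in the comparison below. In replicate 2 at 2 weeks 9 of 432 members were of an airway type.

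The name primed was harder to hold. The same gate also took 53.7% of gated Confetti RFP cells (exact 95% binomial interval 52.0% to 55.4%) and 51.0% of gated Confetti YFP cells (49.4% to 52.7%), although neither library contained mutant cells. The cells are therefore called Lcn2+Lrg1+ cells here. Among the YFP libraries the share was 49.6% (46.9% to 52.4%) in replicate 1 and 95.02% (94.1% to 95.9%) in replicate 2 at 4 days, and 69.5% (65.5% to 73.2%) and 70.0% (66.2% to 73.5%) in replicates 1 and 2 at 2 weeks. Among the RFP libraries of the same lungs it was 49.9% and 69.6% at 4 days and 64.5% and 69.9% at 2 weeks. The intervals cover counting error only, and the shares are a description, since the rule uses both genes.

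Depth changed the size of the shares but not the place of the library that stood apart. With every cell thinned to 2000 UMIs, the shares were 32.2%, 87.5%, 58.8% and 60.6% in the 4 YFP libraries in the same order, and 40.0% and 40.8% in Confetti RFP and YFP. Immune cells with at least 2 Ptprc UMIs served as background, although some of them can express Lcn2. Of these, 16.2%, 4.55%, 22.5% and 2.73% had both transcripts in the 4 YFP libraries at median depths of 5900, 6393, 6519.5 and 7558 UMIs, and 10.3%, 4.55%, 13.7% and 1.37% after thinning. Each YFP share was above that of the immune cells of its own library. With all UMIs and after thinning, replicate 1 at 4 days was below both Confetti libraries and the other 3 YFP libraries were above them. Its interval overlapped theirs with all UMIs but not after thinning (29.7% to 34.8%, against 38.4% to 41.7% and 39.1% to 42.4%). These intervals cover the counting of cells and not the spread between libraries, so they do not show a difference between lungs. With at least 2 UMIs of each gene replicate 1 at 4 days lay between the Confetti libraries, at 34.1% against 36.2% in Confetti RFP and 33.1% in Confetti YFP.

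**Figure D1:**
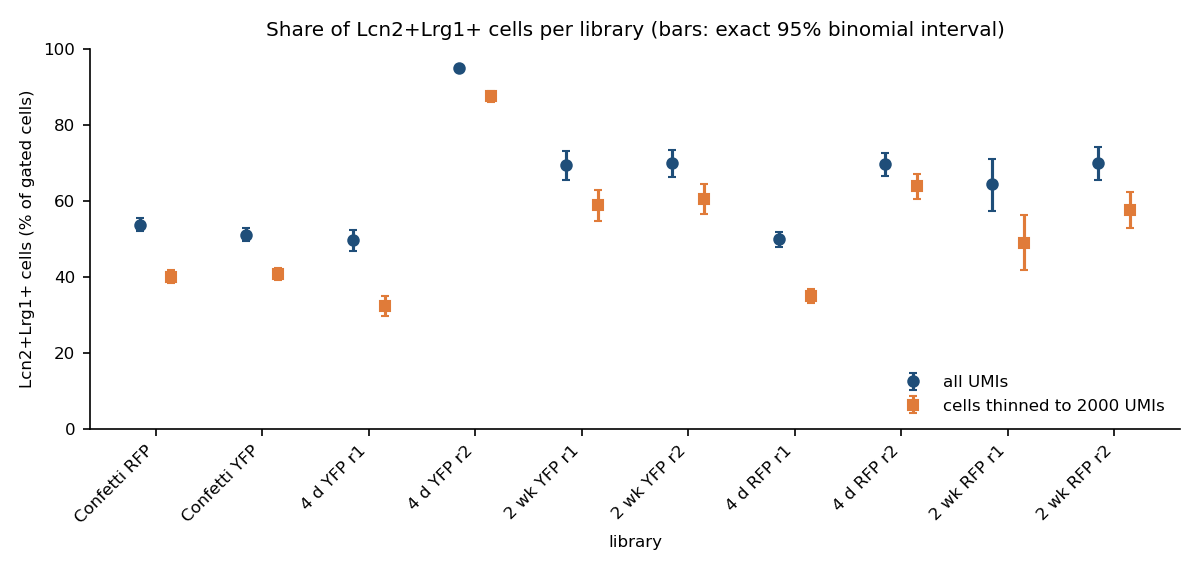
Share of Lcn2+Lrg1+ cells among gated cells (percent, y axis) in each of the 10 libraries (x axis), with all UMIs (circles) and with cells thinned to 2000 UMIs (squares); bars are exact 95% binomial intervals, and r1 and r2 are replicates. With all UMIs replicate 1 at 4 days YFP (49.6%) lies near the Confetti libraries and after thinning (32.2%) below them, while replicate 2 (95.02%) lies above all others.

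The threshold of 1 UMI cut through a continuous range. In replicate 1 at 4 days 192 members (29.9%) had a single Lrg1 UMI, against 69 (2.99%) in replicate 2, and 63 (15.9%) and 25 (5.59%) in replicates 1 and 2 at 2 weeks. Just outside the gate were 538, 88, 131 and 80 cells with Lcn2 but no Lrg1, in the same order. Members had a median of 12, 34, 27 and 31 Lcn2 UMIs, and the Lcn2+Lrg1- cells had 5, 13, 4 and 7.5. Only 266 gated cells had neither transcript, and 71.8% of those had 3 or more UMIs of another lineage.

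The level of the state's genes separated replicate 1 at 4 days from the other 3 YFP libraries. Values are CPM of the summed members, scaled across the 10 libraries by edgeR's TMM method. Lcn2 stood at 2588 CPM in replicate 1 at 4 days, and at 7355, 7279 and 8055 CPM in replicate 2 at 4 days and replicates 1 and 2 at 2 weeks. Lrg1 stood at 1021 CPM and at 2607, 2072 and 3229 CPM in the same order. In the Confetti RFP and YFP libraries, cells of the same gate held 2695 and 2468 CPM of Lcn2 and 1152 and 1168 CPM of Lrg1. Replicate 1 at 4 days thus lay at the Confetti level for both genes, and the other 3 libraries did not overlap with it. These levels were measured in cells chosen on the same transcripts and are a description.

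The 3 markers outside the rule and Retnla were also lowest in replicate 1 at 4 days, while the order of the other 3 libraries differed from gene to gene. Apoc1 stood at 602 CPM in replicate 1 at 4 days and at 1724, 1272 and 1749 CPM in the other 3, compared with 489 and 569 CPM in Confetti. Slpi stood at 158 CPM and at 934, 415 and 756 CPM, compared with 206 and 164 CPM in Confetti. Retnla, which encodes the secreted protein RELMα known from type 2 immune responses, had the widest range of the genes plotted, with 93.1 CPM and then 1155, 1156 and 871 CPM, compared with 154 and 140.1 CPM in Confetti. The mean of the 3 libraries was 11.4 times replicate 1 at 4 days for Retnla, 4.43 times for Slpi and 2.63 times for Apoc1. Scd1 differed less, at 7265 CPM and then 9886, 7878 and 10776 CPM, and here replicate 1 at 4 days was above both Confetti libraries (4228 and 4254 CPM). These are descriptions of single libraries and were not tested.

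The same split ran through the mutant cells. RFP cells of the gate held 3075 and 7809 CPM of Lcn2 in replicates 1 and 2 at 4 days, and 119 and 563 CPM of Retnla. Across 6809 genes outside the rule and the sex-linked transcripts, the log2 profile of YFP members at 4 days correlated at r = 0.983 with RFP cells of replicate 1 for replicate 1, and at r = 0.984 with RFP cells of replicate 2 for replicate 2, but at r = 0.943 between both YFP replicates. These correlations are across genes, which are not independent. Replicate 1 at 4 days also carried 612 CPM of Xist against 0.243 CPM in replicate 2, 874 CPM of the immunoglobulin gene Igkc against 0 CPM, and 668 CPM of the haemoglobin gene Hbb-bs against 0 CPM. The part of sex, of transcripts from blood cells and of preparation in the difference was not tested, and with 1 pool per replicate they cannot be told apart.

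**Figure D2:**
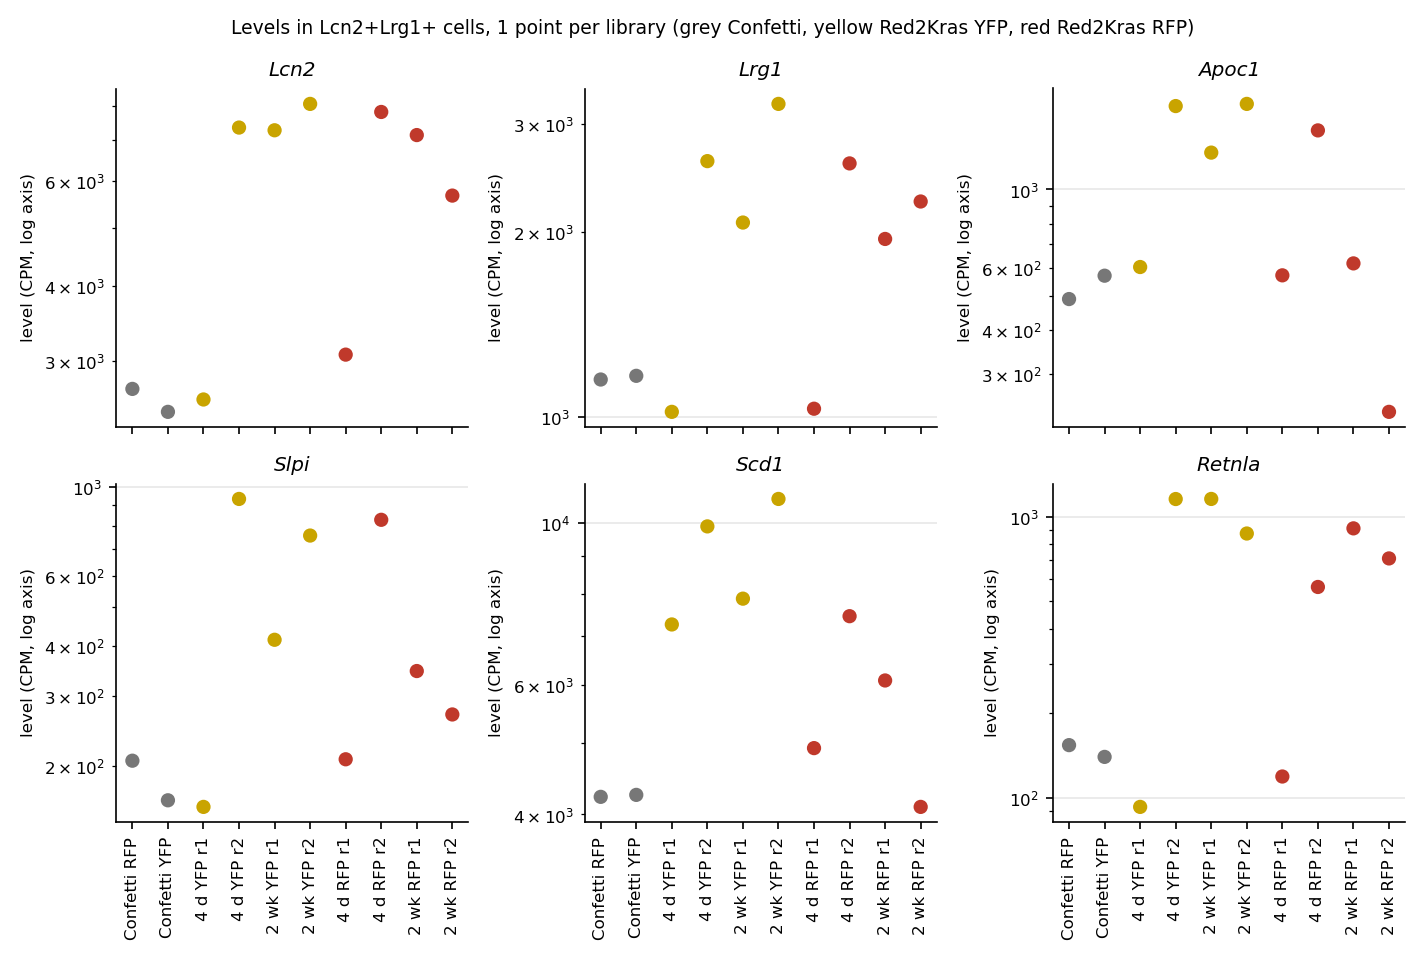
Level of 6 genes in Lcn2+Lrg1+ cells (TMM-scaled CPM, log axes that start above 0) in each library, 1 point per library, with Confetti in grey, Red2Kras YFP in yellow and Red2Kras RFP in red. Replicate 1 of YFP at 4 days lies with Confetti for Lcn2 (2588 CPM), Lrg1 (1021 CPM), Apoc1, Slpi and Retnla.

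Acute-phase genes are those that the liver and other epithelia induce in inflammation. Of the 16 with a UMI in members 11 were lowest in replicate 1 at 4 days, 3 in replicate 2 at 2 weeks and 1 in replicate 2 at 4 days. Over all 11149 genes tested with a UMI in members, the lowest level fell in replicates 1 and 2 at 4 days for 26.2% and 14.9%, and in replicates 1 and 2 at 2 weeks for 25.3% and 32.9%. Il33, an alarmin cytokine that damaged epithelium releases, stood at 394 CPM in replicate 1 at 4 days and at 813, 952 and 683 CPM in the other 3 YFP libraries. Hp, which encodes haptoglobin, stood at 836 CPM and at 1456, 1239 and 2185 CPM. Orm1, an acute-phase carrier protein, stood at 3.65 CPM and at 53.6, 61.6 and 43.5 CPM. Fgg, the fibrinogen γ chain, stood at 9.48 CPM and at 33.2, 60.1 and 112 CPM. For these 4 genes, named here as examples with their values known, the lowest of the 3 libraries was above replicate 1. Of the 19 acute-phase genes, 3 had no UMI in any member, among them Fgb, which encodes the fibrinogen β chain.

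Of 18 interferon-response genes 10 were lowest in replicate 1 at 4 days and 7 in replicate 2 at 2 weeks. Isg15, a ubiquitin-like modifier, stood at 10.7 CPM in replicate 1 at 4 days and at 87.2, 34.4 and 58.0 CPM in the other 3 YFP libraries. Ifi27l2a stood at 41.8 CPM and at 512, 165 and 97.5 CPM, and Bst2, the virus tether tetherin, at 52.0 CPM and at 267, 128 and 169.5 CPM. Replicate 2 at 4 days was the highest for these 3 examples. Of 20 surfactant and AT2 genes 4 were lowest in replicate 1 at 4 days and 11 in replicate 1 at 2 weeks, and all 8 MHC class II genes were lowest in replicate 1 at 2 weeks. Sftpb, the surfactant protein required for film formation, stood at 8643, 7421, 6975 and 8582 CPM, and Lamp3, a protein of the lamellar body, at 1422, 1144, 1129.6 and 1029.5 CPM. One airway transcript was uneven between libraries. The secretoglobin gene Scgb1a1 of club cells stood at 653, 571 and 529 CPM in the first 3 libraries and at 19604 CPM in replicate 2 at 2 weeks. In that library 9 of 432 members held 99.2% of the Scgb1a1 UMIs. Without cells of the airway type in any library, it stood at 410, 225, 281 and 164 CPM.

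To see what the members share beyond the rule, their summed profiles were first compared with those of Lcn2-Lrg1- cells of the same libraries. This comparator was thin, with 50, 1, 14 and 10 cells in the 4 libraries after other lineages were left out, 75 in all. By edgeR's quasi-likelihood test with the library as a block, 46 genes were higher in members (0.583% of 7888 tested, at an adjusted p under 0.05) and 39 were lower (0.494%). Together 1.08% were called, and 759 had an unadjusted p under 0.05. Without replicate 1 or 2 at 2 weeks 28 and 36 genes were called, and without replicate 1 or 2 at 4 days 63 and 124. Keeping the cells of other lineages gave 2369. The difference between both classes changed with time for 5 genes (0.0634% called), 4 of them upward (0.0507%) and 1 downward (0.0127%).

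The other markers of the state were higher in members. Scd1 stood at 8557, 11741, 9600.3 and 12768 CPM in members of the 4 libraries and at 3498, 2206, 1097 and 2024 CPM in Lcn2-Lrg1- cells (log2 fold change 2.36, SE 0.470, adjusted p = 0.000134). Apoc1 (log2 fold change 2.02, SE 0.446, adjusted p = 0.00124) and Slpi (log2 fold change 1.93, SE 0.447, adjusted p = 0.00268) rose in members and were higher in members of each of the 3 libraries that had more than 1 comparator cell. Of 9 acute-phase genes tested 6 rose and none fell, with a median log2 fold change of 2.46 against 0.19 over all genes. Fgg, 1 of the 6, had no UMI in the comparator and could only be higher. With Fgg at its bound of at least 4.95-fold the median was 2.45. Retnla had only 2 counts in Lcn2-Lrg1- cells and stood at 109.6, 1372, 1409 and 1032 CPM in members. No count in the comparator was found for Alkal1, Fgg, Itga7, Angptl8, Slc26a4 and Mllt3, all of which are among the genes called as higher. They were tested only because of their level in members and, like Fgg above, could only come out higher. Against a floor of 3 counts over the group, Alkal1, a ligand of the receptor kinase ALK, was at least 6.94-fold higher in members.

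Of the 39 genes lower in members 2 were lower in all 4 libraries, but in replicate 2 at 4 days the comparator was 1 cell, in which 36 of the 39 had no count and so could not be higher than in members. In each of the other 3 libraries 19 of the 39 were lower in members. Krt18, a keratin of simple epithelia that marks transitional cells, fell by 1.48 on the log2 scale (SE 0.388, adjusted p = 0.0152), and Gstm1, a glutathione transferase, fell by 1.74 (SE 0.409, adjusted p = 0.00328). Of 11 genes of the transitional list (DATP, damage-associated transient progenitors) 4 fell and none rose, with a median of -1.20. These were Areg, Krt7, Clu and Krt18, of which only Krt18 was lower in all 4 libraries. With cells of other lineages kept none of the 4 passed, and Clu (0.14) and Krt7 (0.13) turned. Sftpc and Sftpb did not pass the test (adjusted p = 0.575 for both), but their list lay higher in members. Of its 20 surfactant and AT2 genes 19 were above 0, with a median of 1.13 against 0.19 over all genes. Lamp3 (log2 fold change 1.72, adjusted p = 0.0115) and Lyz2 (1.70, adjusted p = 0.0408) rose and none fell. Of 24 lipid synthesis genes 23 were above 0, 4 rose and none fell. Whether the acute-phase rise is separate from these shifts was not tested. Scgb3a2 and Cyp2f2, genes of club cells, passed as lower, but 144 of 144 Scgb3a2 counts and 50 of 51 Cyp2f2 counts in the comparator came from replicate 1 at 4 days.

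A firmer comparison was added after these numbers were seen. It set members against Lcn2+Lrg1- cells of the same libraries, of which 798 remained (522, 80, 122 and 74). Here 155 genes were higher in members (1.59% of 9775 tested) and 80 were lower (0.818%), together 2.4%, and 1057 had an unadjusted p under 0.05. Without replicate 1 at 4 days 93 were higher and 81 lower, without replicate 1 at 2 weeks 107 were higher and 64 lower, and without replicate 2 at 2 weeks 85 were called in all. Of the 85 genes called in the first comparison 53 were also called here (62.4% of the first list and 22.6% of the second), all in the same direction. Of the 235 genes, 149 were higher and 66 lower in members of every library. Both comparisons use the same members, and members were deeper, with medians of 6422, 6055, 5079.5 and 6391.5 UMIs against 5422, 5013.5, 3966 and 4877.5. With the summed counts thinned to 2000 UMIs per cell 139 genes were called. The classes were still those of all UMIs, so this thinning cannot remove the part of depth in membership. Without the library block 3 genes were called.

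The largest differences are given by gene. Retnla stood at 89.2, 1122, 1118 and 846 CPM in members and at 21.5, 213, 45.4 and 72.4 CPM in Lcn2+Lrg1- cells, which is 3.01 on the log2 scale (SE 0.222, adjusted p = 3.9e-09). Within replicate 1 at 4 days members were also above their own comparator, although both were low. Mfsd2a, a transporter of lysophosphatidylcholine that supplies lipid for surfactant, stood at 48.9, 99.0, 105 and 105 CPM against 11.2, 27.2, 17.0 and 23.2 CPM (log2 fold change 2.18, SE 0.174, adjusted p = 1.54e-08). Hdc, which makes histamine, stood at 110.2, 429, 245 and 311 CPM against 45.3, 129, 90.8 and 78.2 CPM (log2 fold change 1.56, SE 0.130, adjusted p = 2.84e-08). For all 3 genes every library had members above its own Lcn2+Lrg1- cells. The others of the 12 largest increases were Fgg, Orm1, Alkal1, Phgr1, Itih4, Itga7, Heatr1, Kcnq1 and Ppp1r3c, with log2 fold changes of 1.37 to 4.14.

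The remaining markers of the state moved by less than Retnla. Scd1 rose by 0.87 on the log2 scale (SE 0.0997, adjusted p = 4.51e-06), Apoc1 by 0.85 (SE 0.115, adjusted p = 4.89e-05) and Slpi by 0.64 (SE 0.119, adjusted p = 0.00225). Slpi stood at 152, 907, 401 and 735 CPM in members and at 122, 716, 204 and 350.4 CPM in Lcn2+Lrg1- cells, so the gap between libraries was wider than the gap between classes. Without replicate 2 at 2 weeks Slpi did not pass (adjusted p = 0.101). Sftpc (log2 fold change 0.18, SE 0.0623, adjusted p = 0.193) and Sftpb (0.20, SE 0.0782, adjusted p = 0.258) did not pass the test.

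**Figure D3:**
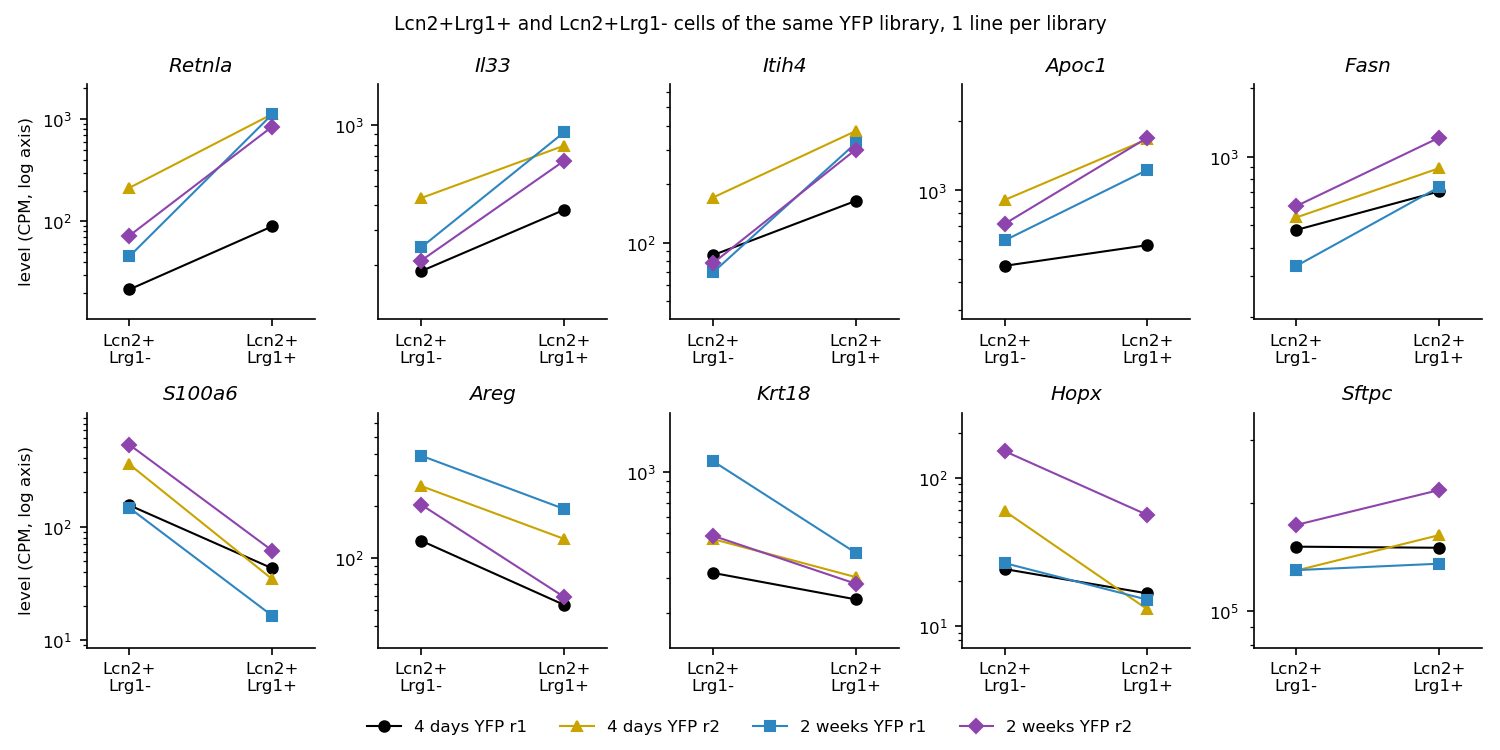
Level of 10 genes (TMM-scaled CPM, log axes) in Lcn2+Lrg1- cells and in Lcn2+Lrg1+ cells of the same YFP library, with 1 line per library. Retnla, Il33, Itih4, Apoc1 and Fasn are higher and S100a6, Areg, Krt18 and Hopx lower in Lcn2+Lrg1+ cells of all 4 libraries, while Sftpc (log2 fold change 0.18) did not pass the test.

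Of 13 acute-phase genes tested 8 rose and none fell (Fgg, Il33, Chil1, Itih4, Lbp, Orm1, C3 and Fga), with a median log2 fold change of 1.43 against 0.02 over all genes. Fga, 1 of the 8, and Orm2, which did not pass, had no count in Lcn2+Lrg1- cells and could only be higher. With both at their bounds of at least 8.01-fold and 4.54-fold the median stayed at 1.43. Il33 stood at 378, 789.7, 920.3 and 663 CPM in members against 187, 433, 246 and 211 CPM (log2 fold change 1.32, SE 0.131, adjusted p = 6.29e-07). Itih4, a plasma protease inhibitor, stood at 164, 377, 326 and 302 CPM against 86.0, 171, 70.0 and 78.2 CPM (log2 fold change 1.43, SE 0.157, adjusted p = 2.46e-06). Chil1, a chitinase-like secreted protein, rose by 0.88 (SE 0.0947) and Lbp, which presents bacterial lipopolysaccharide to CD14, by 1.12 (SE 0.134). Hp was at 0.40 on the log2 scale (adjusted p = 0.0852).

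Of 24 lipid synthesis genes 7 rose and none fell, namely Fasn, Elovl1, Fdps, Apoe, Idi1, Me1 and Acly, and 23 of 24 were above 0 with a median of 0.40. Fasn, fatty acid synthase, stood at 705, 889.7, 736 and 1210.0 CPM against 478, 542, 333 and 608 CPM (log2 fold change 0.84, SE 0.102, adjusted p = 1.1e-05). Elovl1, an elongase of fatty acids, rose by 0.71 (SE 0.0883) and Fdps, an enzyme of the isoprenoid and sterol pathway, by 0.73 (SE 0.117). Of 20 surfactant and AT2 genes 6 rose and 1 fell, with a median of 0.20. The largest was Fabp5, a fatty acid carrier (log2 fold change 0.83, SE 0.105, adjusted p = 1.73e-05), and the gene that fell was the protease Ctsh (log2 fold change -0.44, SE 0.0875, adjusted p = 0.00431).

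NF-κB target genes did not move together. Of 19 tested 2 rose and 2 fell, with a median of -0.17. Cxcl15, a chemokine of lung epithelium, rose by 0.56 (SE 0.0791) and Sod2, the mitochondrial superoxide dismutase, by 0.50 (SE 0.117). Nfkbia, the inhibitor of NF-κB, fell by 0.78 (SE 0.172, adjusted p = 0.0111) and the chemokine Cxcl2 fell by 1.61 (SE 0.306, adjusted p = 0.0029), each lower in members of 3 of 4 libraries. For Cxcl2, replicate 1 at 2 weeks held most of the difference, with 46.9 CPM in members and 280.0 CPM in Lcn2+Lrg1- cells. Of 13 genes of IL-1 and IL-6 signalling 2 rose, the oncostatin M receptor gene Osmr (log2 fold change 0.97, SE 0.196, adjusted p = 0.00506) and the interleukin 4 receptor gene Il4ra (0.91, SE 0.224, adjusted p = 0.026). None of 8 MHC class II, 14 interferon-response and 7 cell cycle genes tested passed, with medians of 0.08, 0.23 and 0.38.

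Of 12 transitional genes 6 fell and none was above 0, with a median of -0.76. Areg, a growth factor of the EGF family, stood at 53.3, 129, 192 and 59.3 CPM in members against 125, 260.0, 389.7 and 203 CPM (log2 fold change -1.22, SE 0.124, adjusted p = 9.6e-07). Krt18 fell by 0.84 (SE 0.127) and its partner keratin Krt8 fell by 0.62 (SE 0.126), and both were lower in members of all 4 libraries. The cell cycle inhibitor gene Cdkn1a fell by 0.78 (SE 0.133). S100a6, a calcium-binding protein outside the lists, had the largest decrease, at 42.9, 34.4, 16.4 and 61.4 CPM in members against 154, 352, 146 and 524 CPM (log2 fold change -2.80, SE 0.178, adjusted p = 2.27e-10).

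Of 10 AT1 genes 4 fell, with a median of -0.40, among them the homeobox gene Hopx (log2 fold change -1.22, SE 0.220, adjusted p = 0.0018) and the water channel gene Aqp5 (-0.42, SE 0.0949, adjusted p = 0.0138). Of 12 immediate early genes 4 fell and none was above 0, with a median of -0.52. Atf3, Junb and Ier3 were lower in members of all 4 libraries and Egr1 in 2 of 4. Lcn2+Lrg1- cells varied widely between libraries, with means of 822 CPM (SD 1070) for Atf3 and 238 CPM (SD 400) for Egr1. Under 14 alternatives Atf3, Junb, Ier3 and Egr1 kept their sign, but 2, 4, 2 and 4 of the values no longer passed. Of 10 heat-shock genes Hspb1 fell (log2 fold change -0.52, SE 0.103, adjusted p = 0.00438), in a comparison where cells with 3 or more UMIs of Hspa1a and Hspa1b had been removed from both classes. The others of the 12 largest decreases were Gpx2, Akap5, Ndnf, Cyp2f2, Kcnk2, Gstm1, Map3k8, Ccpg1os and Lgals3, between -1.68 and -1.11. Without replicate 1 at 4 days, Retnla stayed at 3.32, Il33 at 1.41, Apoc1 at 1.00, Slpi at 0.72, S100a6 at -3.27 and Areg at -1.26, all with an adjusted p under 0.05, while Osmr (adjusted p = 0.0707), Il4ra (adjusted p = 0.135), Ppp1r3c (adjusted p = 0.0706), the surfactant-list gene Slc34a2 (adjusted p = 0.0581) and the transcription factor gene Egr1 (adjusted p = 0.0622) did not pass.

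**Figure D4:**
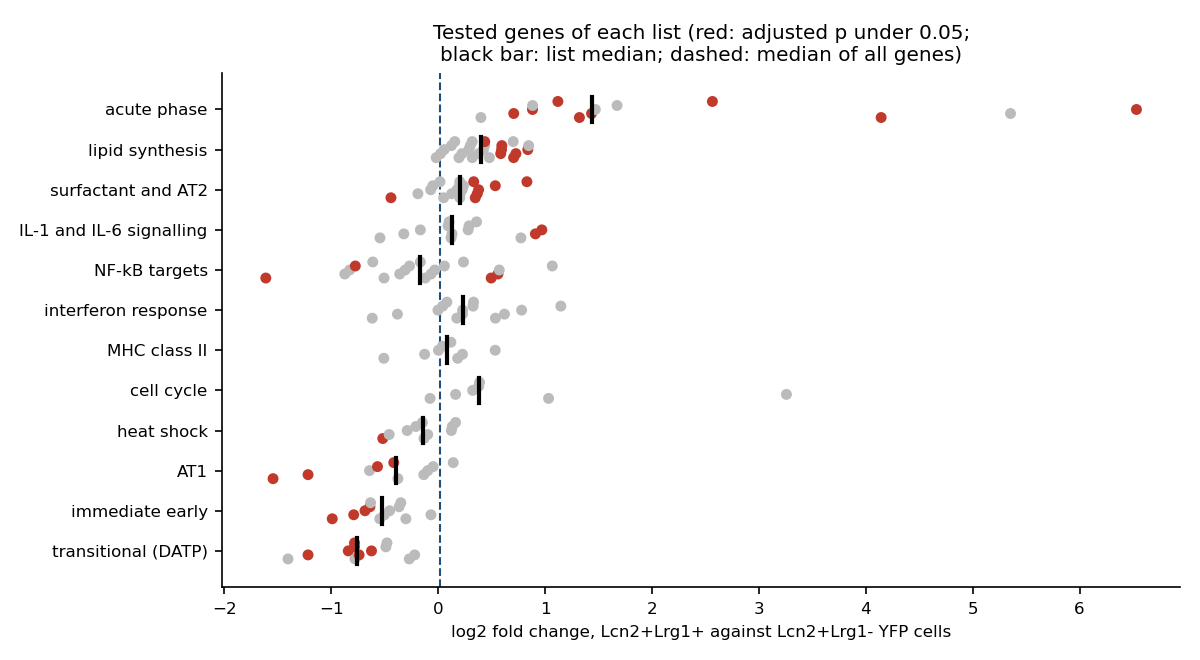
Log2 fold change (x axis) of each tested gene in 12 lists (y axis) between Lcn2+Lrg1+ and Lcn2+Lrg1- YFP cells; red points have an adjusted p under 0.05, black bars are list medians and the dashed line is the median of all 9775 genes. The acute-phase median lies at 1.43 and the transitional median at -0.76, and the acute-phase points at 5.35 and 6.53 are Orm2 and Fga, fitted against 0 counts.

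Promoters of the genes that rose were also searched for the 3 motifs. TTGCNNAA occurred in 14.8% of the 155 promoters found for genes higher in members, 7.78% of 90 promoters of genes lower in members and 8.34% of 9916 promoters of the genes tested. The κB consensus occurred in 9.03%, 6.67% and 7.04%, and TTCNNNGAA in 4.52%, 3.33% and 6.70%. A gene can have several promoters here, and no test was run on these shares.

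The comparison of time points among members, 2 weeks against 4 days, called 0 of 11167 genes (0% called) with edgeR, with 149 at an unadjusted p under 0.05, and DESeq2 also called 0. Apoc1 was at 0.38 on the log2 scale (SE 0.609), Slpi at 0.10 (SE 0.765), Scd1 at 0.12 (SE 0.340) and Retnla at 0.70 (SE 0.920), each with an adjusted p of 1. The sign depended on which 4 days library was kept, since without replicate 1 Apoc1 was at -0.19 and Slpi at -0.67, and without replicate 2 they were at 1.32 and 1.89. Of 14 acute-phase genes 13 were above 0, with a median of 0.70 against -0.01 over all genes, and all 10 heat-shock genes were above 0 with a median of 0.60. None of these genes passed the test.

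Mutant and wildtype cells of the same gate were then compared in Red2Kras lungs. With groups alone, edgeR called 0 of 11167 genes (0% called), the smallest adjusted p was 0.0708 and 781 genes had an unadjusted p under 0.05. With time point and replicate number as a block, 81 genes were higher in RFP cells (0.787% of 10286 tested) and 29 were lower (0.282%), together 1.07%. DESeq2 without the block called 28. The blocked values follow, since deviations of colours with the same number correlated at 0.692 at 4 days, though only at 0.338 at 2 weeks. The block was thus chosen on the same counts that it tests, and its p-values are not independent of that choice. The RFP cells were few at 2 weeks, 120 and 295 in the summed profiles. The limit on Hspa1a and Hspa1b removed 89.6% and 63.2% of the RFP cells that reached it in replicates 1 and 2. Without this limit the RFP members were 1433 and 774, so the RFP cells compared here are a remainder low in heat-shock transcripts. The gate also removed cells with Cldn4 or Dlk1.

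A minority of the transitional and NF-κB target genes passed as lower in the wildtype members, 5 of 15 and 1 of 20 (Cxcl1). Ereg and Plaur, among the 5, were at or near 0 in the YFP libraries and could hardly come out otherwise. Cxcl3, Hbegf, Il33 and Hp were chosen for their values here after these were seen. Cxcl3, a neutrophil chemokine that is in neither list, stood at 8.80 and 16.1 CPM in YFP members at 4 days and at 8.07 and 8.98 CPM at 2 weeks, against 32.2 and 68.8 CPM and 39.6 and 30.1 CPM in RFP cells (log2 fold change of RFP over YFP 2.00, SE 0.157, adjusted p = 0.000177). The colours did not overlap for this gene. The transitional genes higher in RFP cells were Plaur, Ereg, Hbegf, Krt7 and Clu. Ereg had no UMI in any YFP library and Plaur at most 0.878 CPM there, so both were tested only because of their level in RFP cells. The list had a median of 0.62 against -0.01 over all genes. Hbegf, a growth factor of the EGF family, stood at 20.4, 29.9, 57.9 and 25.7 CPM in the YFP libraries and at 44.6, 69.9, 82.5 and 72.8 CPM in the RFP libraries (log2 fold change 1.09, SE 0.161, adjusted p = 0.00628). Spp1, which encodes osteopontin, reached 18.6 and 222 CPM in RFP cells at 2 weeks. Its highest value in YFP members was 1.28 CPM, so Spp1 too was tested only because of its level in RFP cells. Other large increases in RFP cells were Meg3, St8sia6, Cd38 and the AT1 gene Pdpn, each with its highest level in replicate 2 at 2 weeks.

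Acute-phase genes were higher in the wildtype members for 3 of 14 tested, with a median log2 fold change of RFP over YFP of -0.62. Il33 fell by 0.80 from YFP to RFP cells (SE 0.159, adjusted p = 0.0328) and Hp fell by 0.90 (SE 0.190, adjusted p = 0.0442), both lower in RFP cells of every pair. The third was Orm2, at 5.99 CPM or less in every library. Of 24 lipid synthesis genes 22 were below 0 in RFP cells, with a median of -0.53. The largest decreases in RFP cells were Pon1, a paraoxonase, Ttc36, Col6a2, Sec14l2 and the haemoglobin gene Hbb-bt, of which Hbb-bt rested on replicate 1 at 4 days (74.2 CPM in YFP and 22.5 CPM in RFP). For Apoc1 the value was -1.01 (adjusted p = 0.258), for Slpi -0.37 (adjusted p = 0.569), for Scd1 -0.68 (adjusted p = 0.168) and for Sftpc -0.40 (adjusted p = 0.446).

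Red2Kras YFP members were last compared with Confetti cells of the same gate, which asks how the cells differ from cells of lungs without mutant neighbours. The methods list a single Confetti preparation, from which both colours appear to have been sorted, so the spread between both Confetti libraries may not be a spread between animals. Of 11167 genes 1 was higher (0.00895%) and 3 were lower (0.0269%), together 0.0358%, with 591 at an unadjusted p under 0.05, and DESeq2 called 22. The gene that passed as higher was the Y-linked Ddx3y, which was at 0 in both Confetti libraries. Gpx3, a secreted glutathione peroxidase, stood at 124 CPM in both Confetti libraries and at 0.486, 2.03, 5.82 and 5.27 CPM in YFP members (adjusted p = 0.000345), and at no more than 1.42 CPM in the RFP libraries. D930048N14Rik and Pdlim4 were the other genes lower. Apoc1 was at 1.33 (SE 0.561), Slpi at 1.62 (SE 0.717), Scd1 at 1.08 (SE 0.310) and Retnla at 2.44 (SE 0.901) on the log2 scale, each with an adjusted p of 0.782.

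All 14 acute-phase genes tested were above 0 in this comparison, with a median of 0.59 against -0.01 over all genes, and so were all 16 interferon-response genes, with a median of 1.53, but none passed the test. Without replicate 1 at 4 days, 12 genes were called, and with the 2 weeks libraries alone 2. The comparisons of time, colour and genotype share the YFP libraries and are not independent of each other. Genotype cannot be told apart here from sex, from time after induction at 4 days, or from the day of preparation, which the labels do not give.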

How the data were processed

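The authors deposited raw UMI counts per gene and barcode for 10 libraries of sorted mouse lung cells. The submitters' processing notes name Cell Ranger 3.1.0 and GRCm38, and the file headers give Cell Ranger 5.0.1. The deposited counts carried no filter on cell quality. Gene positions came from GENCODE M21 and promoter sequences from RefSeq (GRCm38.p6). Quality filters followed the study. The members, the gene lists and the added comparison were chosen with earlier results of these data known.

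Counts of each class and library were summed, without mitochondrial genes and without cells holding 3 or more UMIs of another lineage. Sums were tested with edgeR 4.0.16 (R 4.3.3) by the quasi-likelihood test with TMM scaling, filterByExpr and Benjamini-Hochberg adjustment over all genes tested (threshold 0.05). The 8 genes of the rule and the 34 genes of the lineage gate got no test. Class comparisons had the library as a block, and the other comparisons used groups of all 10 libraries. Scrublet doublets were removed only in an alternative, and Scrublet marked 940 of 32698 filtered cells. DESeq2 1.42.0 was another alternative. Standard errors were derived from the F statistic. Scripts were tested on simulated data. CPM values were scaled separately in each comparison, so the same gene differs slightly between them. P-values of the class comparisons measure the spread of the class difference between libraries, since the library is a block. Those of the blocked comparison of colours measure the spread of the colour difference between pairs. Elsewhere they measure the spread between pooled libraries of a group.

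Named genes were the 12 largest changes per direction with an adjusted p under 0.05, a mean of at least 10 CPM and 1 direction in all 4 libraries (gene models without a name, ribosomal and immunoglobulin genes were skipped, 7 in the class comparisons), up to 4 genes per list, 5 per direction elsewhere, and 5 genes always given besides the rule's. Deviations of same-numbered libraries correlated at 0.692 between colours at 4 days and at 0.338 at 2 weeks. Across time points the correlations were 0.126 to 0.219. The numbers were taken to pair the colours within a time point. The pairing rests on the data, since the labels do not state it. Depth per library was 10742481 to 79927159 UMIs. Some single-gene results are not reported here.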

Additional observations from a re-analysis of the deposited data

Results flagged for a closer look

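The difference between Lcn2+Lrg1+ and Lcn2-Lrg1- cells changed between 4 days and 2 weeks for 5 of 7888 genes (0.0634% called) by edgeR's test of the interaction, and DESeq2 called 0. The fitted change of the difference on the log2 scale was 17.79 for Scgb3a2, 9.08 for Scgb1a1 and 5.10 for Cyp2f2, which are genes of airway club cells, 3.59 for Sprr1a, a gene of squamous and injured epithelium, and -15.69 for Procr, the receptor of activated protein C. These values were fitted against libraries of 1 to 50 Lcn2-Lrg1- cells with counts of 0 among them and are no measure of size. In these cells 21835 of 21848 Scgb1a1 counts came from replicate 1 at 4 days, as did 59 of 63 Sprr1a counts, and 25 of 26 Procr counts came from replicate 2 at 2 weeks. With airway secretory cells also left out 1 gene was called.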

How the results depend on the processing

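Alternatives to the count of genes called were compared by setting. Thinning there kept the classes assigned with all UMIs, whereas for the shares the cells were classed again after thinning. Against Lcn2-Lrg1- cells 85 genes were called, and the count was 47 with DESeq2, 166 without a filter on low counts, 39 with cells thinned to 2000 UMIs, 2369 with other lineages kept, 236 without the heat-shock limit, 54 without the block (no replicate block) and 41 of only 853 genes tested with members matched in UMIs, which was chosen after seeing the data. Leaving out 1 library gave 28 to 124 (124 without replicate 2 at 4 days). Drawing Lcn2-Lrg1- cells matched in UMIs was not run, since too few cells passed the gate. Against Lcn2+Lrg1- cells, a comparison added after seeing the data, 235 became 133, 372, 139 and 537 with DESeq2, no filter, thinning and no heat-shock limit, 3 without the replicate block, and 85 to 203 when 1 library was left out (85 without replicate 2 at 2 weeks).

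For the change of the class difference with time, 5 became 0 with DESeq2, 11 with RLE factors, 9 without a filter, 1 with thinning, 1 with other lineages kept, 1 without airway secretory cells, 3 at 2 UMIs of each gene, 10 without the heat-shock limit, 9 without the replicate block and 2 to 7 when 1 library was left out. For time points, 0 became 29 without a filter, stayed 0 with the replicate block and was 0 to 2 when 1 library was left out. For RFP against YFP, 0 became 28 with DESeq2, 209 without a filter, 2 with thinning, 1 at 2 UMIs of each gene, 1 without the heat-shock limit, 110 with the replicate block and 0 to 12 when 1 library was left out (12 without replicate 1 of RFP at 2 weeks). For Red2Kras YFP against Confetti, 4 became 22 with DESeq2, 219 without a filter, 11 with thinning, 2 with 2 weeks alone and 2 to 12 when 1 library was left out (12 without replicate 1 of YFP at 4 days). The causes were not tested.

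Thinning lowered the shares in the 4 YFP libraries to 32.2%, 87.5%, 58.8% and 60.6%, and 2 UMIs of each gene lowered them to 34.1%, 92.1%, 58.1% and 65.7%. Leaving out other lineages gave 52.1%, 96.3%, 73.4% and 83.6%.

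Against Lcn2-Lrg1- cells, the log2 fold change turned for Apoe (-0.026), Clu (0.14) and Krt7 (0.13) with other lineages kept, and for Cyp2f2 without airway secretory cells (0.24). Leaving out 1 library gave -2.84 to 1.74 for Cyp2f2, and -6.40 to 13.18 for Cyp2f2 and -8.27 to 13.27 for Sprr1a in the change of the class difference, with the opposite sign in each case without replicate 1 at 4 days. No named gene turned between Lcn2+Lrg1+ and Lcn2+Lrg1- cells, where 124 of 784 values under alternatives no longer passed. The 1 to 50 Lcn2-Lrg1- cells per library limit what depth can show there.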
